A study of Homo sapiens with 6 samples.

Results

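The genes described here are 10 genes of prostaglandin synthesis, response and breakdown, picked by symbol from the 60623 gene IDs of the mRNA table: the cyclooxygenase genes PTGS1 and PTGS2, the prostaglandin E synthase genes PTGES, PTGES2 and PTGES3, the prostacyclin synthase gene PTGIS, the receptor genes PTGER2, PTGER4 and PTGFR, and the dehydrogenase gene HPGD. All 10 symbols were found. They were followed in MRC5, a line of human lung fibroblasts of wild-type genotype, 48 h after 1 of 3 treatments: DMSO (control), TGF-β1, or luteolin with TGF-β1. TGF-β1 drives fibroblasts in culture towards a contractile, matrix-rich state, and luteolin belongs to the plant flavonoids. No dose is given in the labels. There was 1 mRNA library and 1 small RNA library for each treatment, so a ratio below compares libraries, not treatments, and no test of treatment was possible.

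Prostaglandins are made from arachidonic acid, which phospholipases free from membranes. A cyclooxygenase turns it into the unstable prostaglandin H2, and terminal synthases turn that into prostaglandin E2, prostacyclin, prostaglandin F2α or thromboxane, each read by its own G protein-coupled receptors on nearby cells. In lung fibroblasts prostaglandin E2, acting through the cAMP-raising receptors EP2 and EP4, is known as a brake on proliferation, migration and collagen synthesis, and TGF-β1 is known as the opposing signal.

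Depth was 17876657 mRNA counts (control), 14609132 (TGF-β1) and 15563805 (luteolin plus TGF-β1). Levels of 1 gene are given as counts per 1000000 (CPM), scaled by the TMM factors of edgeR. Apart from the marker sums below, levels of different genes are compared only as deposited TPM, which is scaled by gene length. TPM carries no TMM factor, so sums of TPM in different libraries are not on the scale of the CPM ratios. Each ratio has an exact 95% interval that covers counting error only. Genes under 1 CPM in both libraries of a comparison were left out as not eligible. A gene is called higher or lower where the ratio was at least 2-fold and its interval excluded equality. All 10 fibroblast markers, COL1A1 and PDGFRA among them, were at 1 CPM or more in every library. Of 5 leukocyte markers 0 reached that level in any library, and PTPRC, which defines leukocytes, and PECAM1, which defines endothelium, had 0 counts throughout. Of 5 endothelial markers 1 reached it, TEK, and of 7 epithelial markers 3 in control, 3 after TGF-β1 and 2 after luteolin plus TGF-β1, all keratin genes. Of 7 gene IDs of pericyte and smooth muscle markers 4, 5 and 4 reached it. Summed over each list, levels were 20537, 30618 and 52827 CPM for fibroblast, 111, 94.8 and 186 for pericyte and smooth muscle, 109, 141 and 62.0 for epithelial, 36.3, 33.6 and 2.92 for endothelial and 0.452, 0.536 and 0.0731 for leukocyte markers. These sums add CPM of different genes, not scaled by length, so longer transcripts weigh more in them. Single markers also differed between libraries: TEK was at 35.9, 33.6 and 2.92 CPM, DCN at 1170, 168 and 760 CPM and MYH11 at 0.100, 0.402 and 8.41 CPM. Markers of the same list did not go together. KCNJ8 (5.98, 9.51 and 2.12 CPM), ABCC9 (4.27, 5.29 and 0.585) and DES (0.854, 1.34 and 0.292) were lowest with luteolin, unlike MYH11 and NOTCH3. NOTCH3, at 92.9, 74.1 and 169 CPM, was the largest part of the pericyte and smooth muscle sum. COL1A1, the largest part of the fibroblast CPM sum, was at 8208, 17225 and 30153 CPM, and PDGFRA at 210, 169 and 112. By TPM, VIM (3905) stood above COL1A1 (3428) in control. Like PTGER4 and PTGFR, TEK was lowest in the luteolin library, and the part of these marker differences in the results was not tested. In bulk RNA, fewer cells of a type and less RNA per cell cannot be told apart.

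Against control, the TGF-β1 library held more PTGS2 and less PTGER2 and PTGES. Among 8 eligible genes 1 was called higher and 2 lower, where 3.7% of all 13416 eligible genes were called higher and 6.67% lower (10.4% in either direction). PTGES was eligible only through its control level. With luteolin added to TGF-β1, PTGS1 was higher and PTGER4, PTGFR and PTGES2 were lower than with TGF-β1 alone: 1 of 7 eligible genes was called higher and 3 lower, where 12.5% of 13703 genes were called higher and 14.8% lower (27.3% in either direction). Luteolin plus TGF-β1 against control gave 1 of 8 higher and 4 lower, where 12.4% of 13859 genes were called higher and 17.1% lower (29.5% in either direction). The median log2 ratio of the eligible genes was -0.49, -0.71 and -1.52 in these 3 comparisons, beside -0.01, -0.04 and -0.08 over all eligible genes. The comparisons share libraries, so their values are not independent of each other. PTGIS, with 1 count in control and 0 in both other libraries, and HPGD, with 0 counts in all 3, were never eligible.

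**Figure D1:**
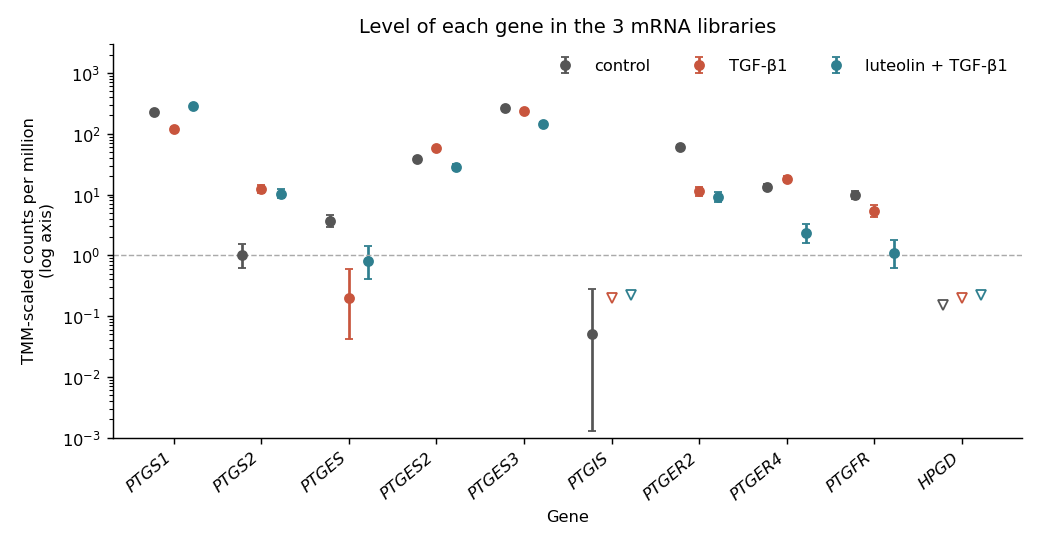
TMM-scaled CPM (log axis) of the 10 genes in the control, TGF-β1 and luteolin plus TGF-β1 libraries, with exact 95% Poisson intervals as bars, open triangles at the 3-count floor where a library had 0 counts, and a dashed line at 1 CPM. PTGER2 is highest in control, PTGS2 is lowest in control, and HPGD is at 0 counts in every library; heights of different genes are not scaled for length.

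PTGS1 encodes the cyclooxygenase that most tissues make constantly. It had 4600 counts in control, 1818 after TGF-β1 and 3962 after luteolin plus TGF-β1, which is 231, 122 and 290 CPM. The TGF-β1 library was the low one, and the luteolin library lay above control. The log2 ratio of TGF-β1 over control was -0.92 (interval -1.0 to -0.85), short of 2-fold with TMM, and reached -1.05, a call, when only total counts were used for scaling. Luteolin plus TGF-β1 over TGF-β1 was 2.38-fold higher (log2 ratio 1.25, 1.17 to 1.33). Over control the log2 ratio was 0.33 with TMM and -0.02 with total counts, so its sign depended on the scaling. PTGS1 (ENSG00000095303) lies on chromosome 9 from 122370533 to 122395703 in GRCh38, the assembly that hg38 names; this and the spans below are whole genes in RefSeq's annotation, and all 10 are protein-coding.

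PTGS2 encodes the inducible cyclooxygenase, whose mRNA is short-lived and responds to cytokines and growth factors. It had 20 counts in control, 183 after TGF-β1 and 142 after luteolin plus TGF-β1, or 1.00, 12.3 and 10.4 CPM. Control was the low library, and the other pair was close. TGF-β1 over control was 12.2-fold higher (3.61, 2.94 to 4.35), and luteolin plus TGF-β1 over control was 10.3-fold higher (3.37, 2.69 to 4.12). Between luteolin plus TGF-β1 and TGF-β1 the log2 ratio was -0.24, with an interval of -0.57 to 0.08 that includes equality. PTGS2 (ENSG00000073756) spans chromosome 1 from 186671791 to 186680423. PACERR, the antisense RNA gene next to it, had 2, 2 and 0 counts in control, TGF-β1 and luteolin plus TGF-β1, all at or under the floor of 3 counts. The strand setting of the counting is not given in the sources used here, so reads of this pair cannot be told apart.

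On the per-length TPM scale PTGS1 remained the larger cyclooxygenase transcript in each library. PTGS2 made up 0.475% of the cyclooxygenase TPM in control (interval 0.291 to 0.733), 9.96% after TGF-β1 (8.63 to 11.4) and 3.79% with luteolin plus TGF-β1 (3.20 to 4.45). These intervals come from the exact binomial interval of the counts of both genes and do not overlap. They hold counting error of 1 library each and no spread between cultures, so the lack of overlap is no test of treatment. Summed cyclooxygenase TPM, without TMM factors, was 165, 92.9 and 179 in the same order. The TGF-β1 library was thus lowest in total and highest in the PTGS2 share, and the smaller share with luteolin went with the higher PTGS1 level.

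The genes with the pair of ratios most like that of PTGS2 were HHAT, PRR5L, FN1, XYLT1 and SPOCK1. Likeness was the Euclidean distance between the log2 ratios of TGF-β1 over control and of luteolin plus TGF-β1 over TGF-β1, across 3 libraries and 9657 candidate genes with at least 10 CPM in 1 library and at least 4 counts in each. The distances ran from 0.33 for HHAT to 0.68 for SPOCK1. FN1, the fibronectin gene, was at 3633, 30194 and 26621 CPM in control, TGF-β1 and luteolin plus TGF-β1, with log2 ratios of 3.05 and -0.18.

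The 250 bases before the RefSeq start sites of PTGS2, PTGER2, PTGER4 and PTGFR are shown for the cyclooxygenase gene called higher with TGF-β1 and for the 3 receptor genes, each called lower in at least 1 comparison. Sequences are from RefSeq's GRCh38.p14 table, 5′ to 3′ on the gene's strand. Capitals mark matches, on either strand, to the TATA box TATAAA, the E-box CACGTG, the cAMP-element core TGACG, the C/EBP-type sequences TTACGTAA and TTACGCAA and TTGCGCAA, the SMAD-type sequence CAGAC, or the NF-κB consensus.

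PTGS2, chr1:186680424-186680673, minus strand: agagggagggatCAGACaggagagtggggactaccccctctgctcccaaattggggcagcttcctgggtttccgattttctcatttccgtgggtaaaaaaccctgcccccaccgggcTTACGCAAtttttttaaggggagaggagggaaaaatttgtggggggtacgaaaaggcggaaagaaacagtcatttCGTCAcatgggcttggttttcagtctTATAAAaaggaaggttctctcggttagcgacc
PTGER2, chr14:52314062-52314311, plus strand: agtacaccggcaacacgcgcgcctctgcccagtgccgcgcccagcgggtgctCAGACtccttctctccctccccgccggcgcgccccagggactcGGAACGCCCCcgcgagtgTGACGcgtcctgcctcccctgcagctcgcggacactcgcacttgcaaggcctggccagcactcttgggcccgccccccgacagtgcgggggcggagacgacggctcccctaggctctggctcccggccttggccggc
PTGER4, chr5:40679665-40679914, plus strand: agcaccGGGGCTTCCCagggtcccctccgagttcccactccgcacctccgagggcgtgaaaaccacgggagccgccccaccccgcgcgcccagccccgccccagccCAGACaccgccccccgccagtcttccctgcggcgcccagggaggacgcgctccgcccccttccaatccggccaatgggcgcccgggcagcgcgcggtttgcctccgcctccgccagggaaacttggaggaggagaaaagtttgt
PTGFR, chr1:78490724-78490973, plus strand: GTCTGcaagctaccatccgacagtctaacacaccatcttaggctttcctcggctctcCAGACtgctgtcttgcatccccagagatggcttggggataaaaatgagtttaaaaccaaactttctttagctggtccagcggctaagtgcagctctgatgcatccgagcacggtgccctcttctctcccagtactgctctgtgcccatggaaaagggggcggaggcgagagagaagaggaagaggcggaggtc

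The PTGS2 window held TATAAA at -32 to -27 from the start site, a TGACG match on the opposite strand at -58 to -54, TTACGCAA at -133 to -126 and CAGAC at -238 to -234. TTACGCAA is a sequence type bound by C/EBP factors, TGACG the core of the cAMP response element, and CAGAC a short sequence that SMAD proteins bind. Of 35116 promoter windows of 300 bases (250 before and 50 after a start site), 0.162% held TTACGCAA, 11.5% TATAAA, 24.6% TGACG and 45.3% CAGAC. Of the 10 genes 9 matched a window, some more than 1. Among those 9, PTGS2 was the gene with TTACGCAA, and 7 held CAGAC. The windows of PTGER2 and PTGER4 held the NF-κB consensus, at -155 to -146 and -244 to -235, as did 11.3% of all windows. HPGD and PTGES3 held this consensus too, and TGACG was also in windows of PTGER2, PTGES3 and HPGD. TATAAA was also in a PTGS1 window, on the opposite strand at -208 to -203. PTGFR held CAGAC on both strands. CACGTG was in 7.26% of windows, TTACGTAA in 0.125% and TTGCGCAA in 0.151%, and 0 of these 3 motifs occurred in the 4 windows shown. These matches describe letters and were not related to the ratios by any test.

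Among the prostaglandin E synthases, PTGES, the inducible microsomal enzyme usually coupled to cyclooxygenase-2, was the one that differed most. It had 74 counts in control, 3 after TGF-β1 and 11 after luteolin plus TGF-β1, or 3.72, 0.201 and 0.804 CPM. Control was the high library and both others were under 1 CPM. TGF-β1 over control gave a log2 ratio of -4.21 (-6.52 to -2.61), and luteolin plus TGF-β1 over control was 4.62-fold lower (-2.21, -3.27 to -1.29). Between the TGF-β1 libraries with and without luteolin it was not eligible; without a filter on low counts the ratio was 2.0 on the log2 scale, with an interval from 0.08 to 4.48. PTGES (ENSG00000148344) lies on chromosome 9 from 129738349 to 129753042.

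In these libraries PTGS2 and PTGES, a pair often induced together by interleukin-1, stood on opposite sides of control. With TGF-β1, PTGS2 was 12.2-fold higher and PTGES 18.5-fold lower, the latter on 3 counts in the TGF-β1 library.

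PTGES2, a membrane-associated synthase, had 772, 854 and 389 counts in control, TGF-β1 and luteolin plus TGF-β1, or 38.8, 57.2 and 28.4 CPM. TGF-β1 over control was at a log2 ratio of 0.56 (0.42 to 0.70). The luteolin library was the lowest, at -1.01 against TGF-β1 (-1.18 to -0.83). That call sits at the edge of 2-fold, since DESeq2 size factors gave -0.99 and upper-quartile scaling -0.84, both short of it. Its head-to-head antisense gene PTGES2-AS1 had 6, 5 and 9 counts in the same order, and without a stated strand setting reads of this pair cannot be told apart either. PTGES2 (ENSG00000148334) spans chromosome 9 from 128120693 to 128128440.

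PTGES3 encodes p23, a cytosolic prostaglandin E synthase that is also an HSP90 co-chaperone. It had 5214 counts in control, 3595 after TGF-β1 and 2010 after luteolin plus TGF-β1, or 262, 241 and 147 CPM, with luteolin the lowest. Its log2 ratios were -0.12 for TGF-β1 over control, -0.71 for luteolin plus TGF-β1 over TGF-β1 (-0.79 to -0.63) and -0.83 over control, all short of 2-fold with TMM. With total counts the last became -1.18, a call. Its reads can be shared with processed copies: the 5 PTGES3 pseudogenes in the table held 191, 127 and 85 counts in the same order, up to 129 in a single one. PTGES3 (ENSG00000110958) lies on chromosome 12 from 56663349 to 56688284.

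By TPM, PTGES3 made up 82.3%, 76.6% and 79.5% of the transcripts of the 3 prostaglandin E synthases in control, TGF-β1 and luteolin plus TGF-β1. PTGES2 made up 15.6%, 23.3% and 19.7%. PTGES took 2.1%, 0.115% and 0.782%. The summed TPM of the 3 was 384, 367 and 187, so the luteolin library was the low one, mostly through PTGES3. Without TMM factors these sums put the luteolin library lower than CPM does. PTGES3 went from 281 TPM with TGF-β1 to 148 TPM with luteolin plus TGF-β1, and was 1.64-fold lower in TMM-scaled CPM. PTGES3 has roles apart from prostaglandin synthesis, so this sum does not measure prostaglandin E2 capacity.

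PTGIS, which makes prostacyclin, gave 1 count in control and 0 in the other libraries. The limit that 0 counts sets, 3 counts, was 0.201 CPM with TGF-β1 and 0.219 CPM with luteolin plus TGF-β1. At this depth a difference in PTGIS was not detectable. PTGIS (ENSG00000124212) spans chromosome 20 from 49503874 to 49568137.

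**Figure D2:**
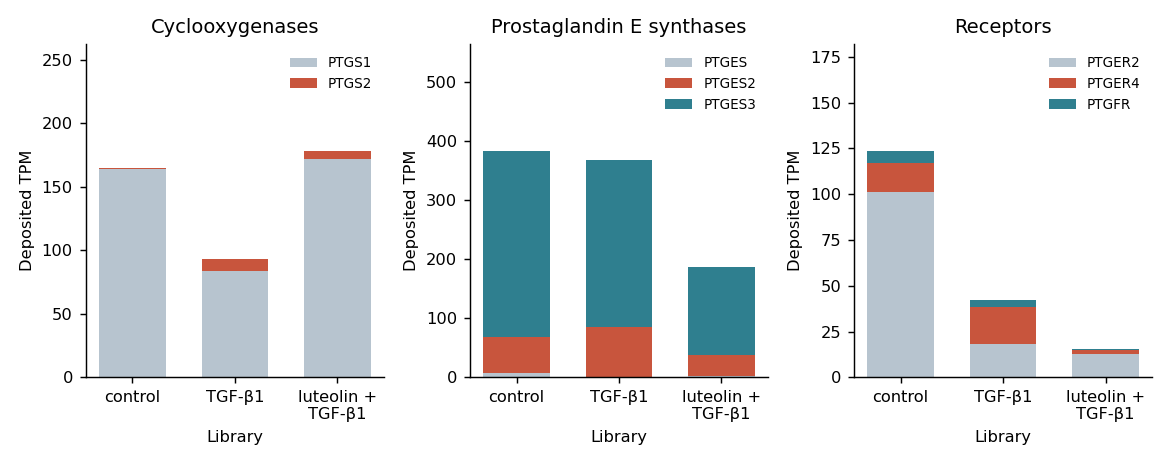
Deposited TPM, without TMM factors, of the cyclooxygenase genes (left), the prostaglandin E synthase genes (middle) and the receptor genes (right) stacked by library, with axes from 0 and 1 library per bar. PTGS2 is visible mainly in the TGF-β1 bar, and the receptor bars go from 124 TPM in control to 42.1 and 15.6 TPM.

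The receptors differed in which library was low. PTGER2 encodes EP2, a cAMP-raising receptor for prostaglandin E2. It had 1213 counts in control, 168 after TGF-β1 and 125 after luteolin plus TGF-β1, or 60.9, 11.3 and 9.14 CPM. Control was the high library. TGF-β1 over control was 5.42-fold lower (-2.44, -2.68 to -2.20) and luteolin plus TGF-β1 over control 6.67-fold lower (-2.74, -3.01 to -2.47). Adding luteolin to TGF-β1 gave a log2 ratio of -0.30, with an interval of -0.65 to 0.04 that includes equality. PTGER2 (ENSG00000125384) lies on chromosome 14 from 52314312 to 52328598.

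PTGER4 encodes EP4, the other cAMP-raising prostaglandin E2 receptor. It had 267 counts in control, 270 after TGF-β1 and 32 after luteolin plus TGF-β1, or 13.4, 18.1 and 2.34 CPM. Here the luteolin library was the low one and the other pair lay close together. Luteolin plus TGF-β1 was 7.73-fold lower than TGF-β1 (-2.95, -3.53 to -2.42) and 5.73-fold lower than control (-2.52, -3.10 to -1.99). TGF-β1 over control was at 0.43 on the log2 scale (0.18 to 0.68). PTGER4 (ENSG00000171522) spans chromosome 5 from 40679915 to 40746800, and 0 counts fell on the 3 PTGER4 pseudogene entries in any library.

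PTGFR encodes the prostaglandin F2α receptor, which raises calcium rather than cAMP. It had 194, 80 and 15 counts in control, TGF-β1 and luteolin plus TGF-β1, or 9.75, 5.36 and 1.10 CPM, each library lower than the one before. TGF-β1 over control was at a log2 ratio of -0.86 (-1.26 to -0.48), short of 2-fold. Luteolin plus TGF-β1 was 4.89-fold lower than TGF-β1 (-2.29, -3.19 to -1.48) and 8.89-fold lower than control (-3.15, -4.02 to -2.39). PTGFR (ENSG00000122420) lies on chromosome 1 from 78490974 to 78540701.

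In per-length terms EP2 transcripts outnumbered those of EP4 in control and with luteolin, and not with TGF-β1 alone. PTGER2 made up 86.7% of PTGER2 and PTGER4 TPM in control (85.1 to 88.2), 47.2% after TGF-β1 (42.3 to 52.1) and 84.9% with luteolin plus TGF-β1 (79.1 to 89.5). The interval with TGF-β1 includes equal shares. The similar shares in control and with luteolin stand on unlike totals: PTGER2 and PTGER4 together had 117 TPM in control, 38.4 after TGF-β1 and 15.0 after luteolin plus TGF-β1. With PTGFR added, the receptor TPM was 124, 42.1 and 15.6. These totals carry no TMM factor.

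HPGD encodes 15-hydroxyprostaglandin dehydrogenase, which takes the first step in inactivating prostaglandins. It had 0 counts in all 3 libraries, which allows up to 0.151 CPM in control, 0.201 after TGF-β1 and 0.219 after luteolin plus TGF-β1. HPGD (ENSG00000164120) spans chromosome 4 from 174490175 to 174522893.

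**Figure D3:**
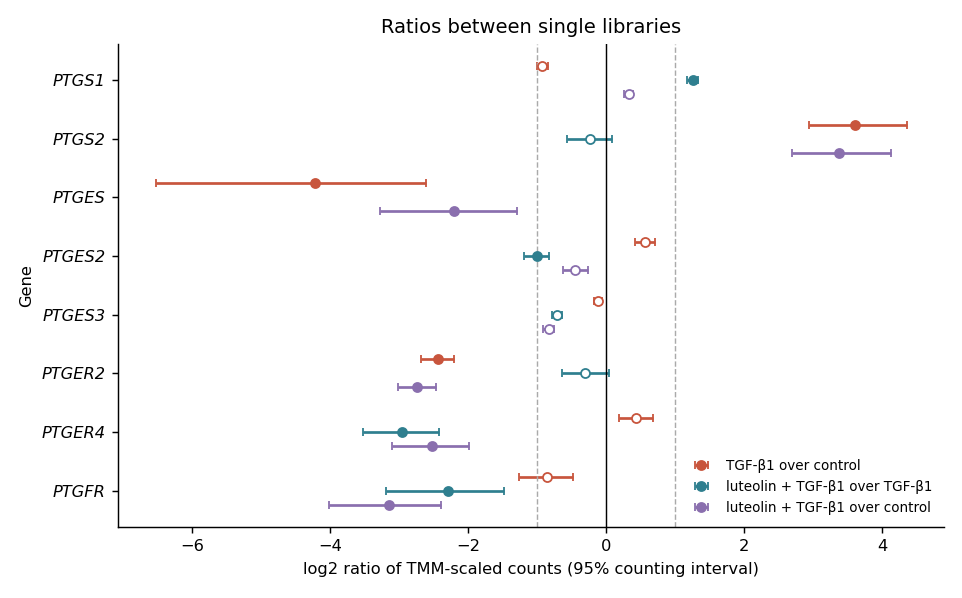
Log2 ratios of TMM-scaled counts between single libraries for the 8 eligible genes in the 3 comparisons, with exact 95% counting intervals as bars, dashed lines at 2-fold, and filled points for called ratios. PTGS2 is the gene called higher with TGF-β1 (3.61), and PTGER4 (-2.95) and PTGFR (-2.29) are furthest below TGF-β1 when luteolin is added.

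By TPM the order in control was PTGES3 (316), PTGS1 (164), PTGER2 (101), PTGES2 (59.9), PTGER4 (15.5), PTGES (8.06), PTGFR (6.93), PTGS2 (0.783) and PTGIS (0.037). With TGF-β1, PTGES3 (281) stood first and PTGES2 (85.6) beside PTGS1 (83.6), and PTGER4 (20.3) stood above PTGER2 (18.1) and PTGS2 (9.25). With luteolin plus TGF-β1, PTGS1 (172) passed PTGES3 (148), and PTGER2 (12.7) and PTGS2 (6.77) stood above PTGER4 (2.27), PTGES (1.46) and PTGFR (0.653). With 1 library per group, no neighbouring levels can be set against replicate spread. Among all genes with a count, PTGS1 ranked 873, 1856 and 704 by TPM, and PTGER2 ranked 1490, 6488 and 6864.

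In the authors' deposited table the log2 fold changes of TGF-β1 over control were 3.61 for PTGS2, -2.42 for PTGER2 and -4.15 for PTGES. For luteolin plus TGF-β1 over TGF-β1 the authors' deposited table gives 1.29 for PTGS1, -2.91 for PTGER4, -2.24 for PTGFR and -0.97 for PTGES2. The p-values beside them compare single libraries and are not used here.

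The wider pathway lists are given by their counts of called genes, beside the share of all eligible genes called in the same comparison. Some called genes reached 1 CPM in the higher of the compared libraries and not in the lower, so their calls rest on a gene that passed through its high library. With TGF-β1 over control these were PTGDR2, SLCO2A1, GGT5, RAPGEF4, NFATC2 and FOS. With luteolin added to TGF-β1 they were FAAH, SLCO2A1, PTGR2, GGT5 and NR4A3, and in luteolin plus TGF-β1 over control FAAH, TBXAS1, PTGDR2 and NR4A3.

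Upstream of the cyclooxygenases, 18 genes of arachidonate release and return were looked at. With TGF-β1, 0 of 11 eligible were called higher and 1 lower, PLAAT3, a phospholipid acyltransferase with phospholipase activity, at a log2 ratio of -1.51 over control, where 10.4% of all genes were called. With luteolin added, 2 of 12 were higher and 2 lower than with TGF-β1, a share near the 27.3% of all genes called. The list's median log2 ratio was -0.31 and 0.06 in these comparisons, beside -0.01 and -0.04 over all genes. The higher pair was the calcium-independent phospholipase gene PLA2G6 at 1.29 and FAAH at 3.59 on counts of 2 and 22 (interval 1.56 to 6.72). The lower pair was DAGLA, a diacylglycerol lipase gene, at -1.89 and ANXA1, the gene of the phospholipase-inhibiting protein annexin A1, at -1.32. PLA2G4A, the cytosolic phospholipase gene classed as the main source of arachidonate for cyclooxygenases, had only 14, 7 and 1 counts in control, TGF-β1 and luteolin plus TGF-β1. MGLL, monoacylglycerol lipase, was at 317, 253 and 160 CPM and was not called with TMM scaling. Against control, luteolin plus TGF-β1 gave 2 of 12 higher (PLA2G6, FAAH) and 3 lower (PLAAT3, DAGLA, ANXA1), beside 29.5% of all genes, with a median of -0.08 in the list and over all genes. DAGLB, ACSL3, ACSL4, LPCAT2, LPCAT3 and MBOAT7 were also eligible and not called.

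Of 8 other synthases and reductases of the pathway 5 were eligible. TBXAS1, thromboxane synthase, had 156, 25 and 11 counts in control, TGF-β1 and luteolin plus TGF-β1, with control the high library, and TGF-β1 over control was 4.68-fold lower (-2.23, -2.90 to -1.61). It was the 1 gene of the 5 called in that comparison, beside 10.4% of all genes. With luteolin added, CBR3, a carbonyl reductase, was lower at -2.45, and TBXAS1 was at -1.06 with an interval that includes equality, so 1 of 5 was called, beside 27.3% of all genes. AKR1B1, which can make prostaglandin F2α, was at 82.3, 62.8 and 37.1 CPM, CBR1 at 64.6, 67.8 and 48.6 CPM and PRXL2B at 53.6, 62.1 and 34.8 CPM. AKR1B1 was called lower in luteolin plus TGF-β1 over control (-1.15), as were TBXAS1 and CBR3, so 3 of 5 were lower and 0 higher, beside 17.1% and 12.4% of all genes. Synthases and reductases had median log2 ratios of -0.02, -0.84 and -1.15 in the 3 comparisons, beside -0.01, -0.04 and -0.08 over all genes. The prostaglandin D synthase gene HPGDS had 0 counts and PTGDS 0, 2 and 0. AKR1C3 was listed at 0 counts in all 3 libraries, and is uncertain because its near-identical paralogs can share reads.

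Among 7 other receptor genes, PTGIR, the prostacyclin receptor, was at 4.27, 5.36 and 2.27 CPM and was lower with luteolin plus TGF-β1 than with TGF-β1 (-1.24, -1.89 to -0.63). It was the 1 of 3 eligible genes called there, a share near the 27.3% of all genes, and 0 were higher. PTGDR2, a prostaglandin D2 receptor, was the 1 of 4 called with TGF-β1, lower at -1.91 on counts of 25 and 5, and also the 1 of 4 called in luteolin plus TGF-β1 over control, at -3.10. The share of all genes called was 10.4% and 29.5% in these comparisons. Across these receptors the median log2 ratio was 0.15, -0.71 and -0.61 in the 3 comparisons. TBXA2R, the thromboxane receptor, had 56, 41 and 31 counts, and PTGFRN, named for inhibiting the prostaglandin F receptor, 21, 25 and 14, with neither called. PTGER3, which encodes the cAMP-lowering receptor EP3, had 1, 0 and 0 counts, and PTGDR had 0.

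Of the transport and later breakdown genes 5 were eligible with TGF-β1. There 1 was called higher and 2 lower, beside 3.7% and 6.67% of all genes, and with luteolin added 1 higher and 1 lower, beside 12.5% and 14.8%. SLCO2A1, the prostaglandin uptake transporter, had 3 counts in control, 26 after TGF-β1 and 9 after luteolin plus TGF-β1, and was higher with TGF-β1 at a log2 ratio of 3.53 (1.82 to 5.90) and lower with luteolin than without at -1.40 (-2.68 to -0.27). ABCC4, an exporter of prostaglandins and cAMP, was at 89.9, 39.99 and 25.4 CPM and was lower with TGF-β1 (-1.17, -1.30 to -1.03). PTGR1, a prostaglandin reductase that acts after HPGD, was at 50.9, 20.8 and 16.4 CPM and was lower with TGF-β1 (-1.29). PTGR2 was higher with luteolin than with TGF-β1 alone at 1.45 on counts of 14 and 35, and PTGR3, at 33.1, 31.3 and 45.1 CPM, was not called. Against control, luteolin plus TGF-β1 gave 0 of 4 higher and 2 lower, ABCC4 at -1.82 and PTGR1 at -1.64, beside 12.4% and 17.1% of all genes. For transport and breakdown the median log2 ratio was -0.78, -0.34 and -0.60 in the 3 comparisons.

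**Figure D4:**
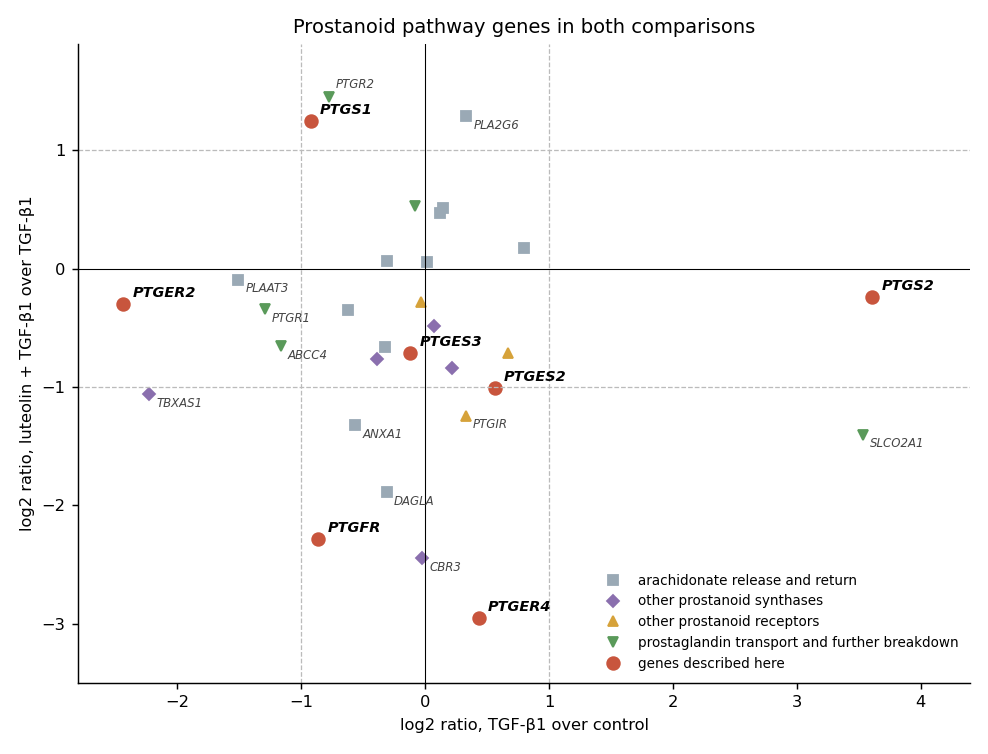
Log2 ratio of TGF-β1 over control (x axis) against luteolin plus TGF-β1 over TGF-β1 (y axis) for the prostanoid pathway genes eligible in both comparisons, coloured by list, with dashed lines at 2-fold. PTGS2 and SLCO2A1 lie furthest right at 3.61 and 3.53, PTGER2 and TBXAS1 furthest left, and PTGER4 lowest; both axes share the TGF-β1 library, so the spread is not a test of any relation.

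Genes downstream of EP2, EP4 and the prostacyclin receptor, the cAMP arm, were mostly not called with TGF-β1: 0 of 22 eligible were higher and 1 lower, RAPGEF4 at -1.13, beside 3.7% and 6.67% of all genes. With luteolin added, 6 of 24 were higher and 6 lower than with TGF-β1, beside 12.5% and 14.8% of all genes. Over the cAMP list the median log2 ratio was -0.05, -0.20 and -0.13 in the 3 comparisons. With TMM scaling the adenylyl cyclase genes split, with ADCY6 at 1.18 and ADCY9 at 1.15 against ADCY7 at -1.91 and ADCY3 at -1.37. The nuclear receptor genes NR4A1, NR4A2 and NR4A3, which cAMP and other stimuli induce, were higher at 1.97, 1.47 and 4.79, the last on counts of 3 and 76 (3.19 to 7.10). PDE10A was higher at 1.99. The cAMP phosphodiesterase genes PDE4B and PDE4A were lower at -1.58 and -1.06, as were PRKAR2B at -1.71 and RAPGEF3 at -1.06. GNAS, the stimulatory G protein α subunit gene, was at 676, 902 and 1184 CPM and was not called. Luteolin plus TGF-β1 over control gave 4 of 24 higher, the NR4A genes and PDE10A, and 6 lower, ADCY3, ADCY7, PDE4B, PDE7B, PRKAR2B and RAPGEF3, beside 12.4% and 17.1% of all genes. The NR4A genes were thus higher in the library where PTGER4 was lower, and whether the pair of differences is linked was not tested.

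The small RNA libraries were read for 11 miRNAs that published work has placed against PTGS2 or HPGD mRNA. Those at 10 CPM or more that are discussed below are printed from RefSeq with the seed, bases 2 to 8, in capitals. The miR-26 pair shares 1 seed.

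miR-101-3p: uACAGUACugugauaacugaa
miR-26a-5p: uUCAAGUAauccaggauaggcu
miR-26b-5p: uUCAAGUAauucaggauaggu
miR-16-5p: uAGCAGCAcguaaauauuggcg
miR-146a-5p: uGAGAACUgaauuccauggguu
miR-199a-3p: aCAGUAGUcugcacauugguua
miR-21-5p: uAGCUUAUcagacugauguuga

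With TGF-β1, 0 of 9 eligible miRNAs of the list were higher and 2 lower than control, where 14.5% of 358 eligible miRNAs were called higher and 37.2% lower (51.7% in either direction). miR-101-3p, reported to repress PTGS2, had 2489 counts in control, 156 after TGF-β1 and 759 after luteolin plus TGF-β1, or 112, 19.2 and 58.2 CPM. The TGF-β1 library was the low one: 5.81-fold lower than control (-2.54, -2.78 to -2.30), with luteolin plus TGF-β1 3.02-fold higher than TGF-β1 (1.60, 1.35 to 1.85). miR-21-5p, reported against HPGD, was at 18424, 6831 and 16902 CPM, again lowest with TGF-β1 (-1.43 over control, then 1.31 with luteolin added).

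miR-16-5p, which is reported to act on the AU-rich tail of PTGS2 mRNA, was the most abundant of the list. It was at 103679, 181234 and 38552 CPM in control, TGF-β1 and luteolin plus TGF-β1, with TGF-β1 the high library and luteolin the low one. It was 4.70-fold lower with luteolin than with TGF-β1 alone (-2.23). In that comparison 2 of 9 listed miRNAs were higher and 1 lower, where 33.6% of 342 eligible miRNAs were higher and 17.3% lower (50.9% in either direction). miR-146a-5p, linked to prostaglandin E2 production in lung fibroblasts, was at 101, 63.5 and 38.5 CPM and was called lower only in luteolin plus TGF-β1 over control (-1.39, -1.53 to -1.24). There 0 of 9 were higher and 2 lower, miR-16-5p being the other, where 12.1% of 354 were higher and 26.8% lower (39% in either direction).

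miR-26a-5p was at 15360, 7914 and 12434 CPM and its seed partner miR-26b-5p at 128, 100.4 and 96.8 CPM, with neither called. miR-199a-3p, whose mature sequence is shared with miR-199b-3p so that their reads cannot be told apart, was at 24782, 33990 and 17314 CPM and not called. miR-143-3p and miR-128-3p were eligible and not called, and miR-144-3p and miR-146b-3p stayed under 10 CPM. With TMM scaling the listed miRNAs were not called more often than the background in any of the 3 comparisons. Whether any of these miRNA levels is related to PTGS2 or HPGD was not tested. HPGD had 0 counts in all 3 mRNA libraries, so a relation to its mRNA could not be looked at here.

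**Figure D5:**
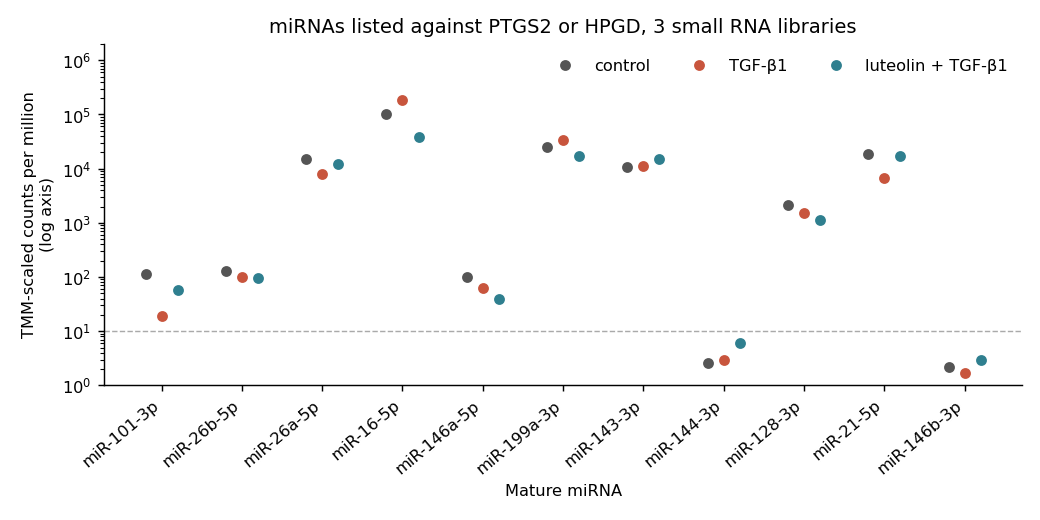
TMM-scaled CPM (log axis) of 11 miRNAs in the control, TGF-β1 and luteolin plus TGF-β1 small RNA libraries, 1 library each, with a dashed line at the 10 CPM minimum. miR-101-3p and miR-21-5p are lowest with TGF-β1, and miR-16-5p is highest with TGF-β1 at 181234 CPM.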

How the data were processed

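MRC5 RNA extracted with TRIzol was made into 6 libraries with TruSeq kits (stranded for mRNA), per the labels' protocols, 1 for each treatment and assay. Counts per Ensembl gene and per mature miRNA, TPM, log2 fold changes and p-values between single libraries were deposited by the authors, per the file headers. The submitters' processing notes name fastp 0.20.0, HISAT2 2.1.0, featureCounts 2.0.1, edgeR 3.36.0 and hg38. Neither annotation release, strand setting nor miRNA aligner is named there. The 3 deposited miRNA columns headed CPM were not used.

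Deposited counts were divided by library totals and by TMM factors (edgeR 4.0.16), which were 1.11 (control), 1.02 (TGF-β1) and 0.879 (luteolin plus TGF-β1) in the mRNA libraries and 1.00, 1.08 and 0.929 in the miRNA libraries. Total miRNA counts were 22277636, 7533041 and 14044332. Ratios were computed over all genes, and their 95% intervals are exact Clopper-Pearson intervals given the summed counts (scipy 1.17.1). A ratio of at least 2-fold with an interval excluding equality was called, at a minimum of 1 CPM for genes and 10 CPM for miRNAs. A count of 0 was set to 3 counts. No test was run, since a single library per group leaves no spread to test against. Floors, like intervals, reflect counting error alone, because there is a single library per group. Reads are not independent molecules, so the intervals can be too narrow even for counting error. Alternatives for the 10 genes were total-count, DESeq2 1.42.0 and upper-quartile scaling, other minimums and other folds. For the miRNAs the alternative was total-count scaling only.

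All 10 genes were named; from 9 further lists, called genes and, for 4 of them, genes at 1 CPM or more; and the 5 genes nearest to PTGS2. The genes and lists were chosen with earlier results of these data known. A protein comparison of PTGS1 with PTGS2 and of the receptors was planned and was not run.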

Additional observations from a re-analysis of the deposited data

How the results depend on the processing

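No paired analysis was possible because each group has 1 library, and no library could be left out. Relative to TMM, total counts shifted every gene's log2 ratio by -0.12 for TGF-β1 over control, -0.22 for luteolin plus TGF-β1 over TGF-β1 and -0.34 for luteolin plus TGF-β1 over control, and upper-quartile factors shifted the last 2 by 0.17. Of 69 ratios of single genes under the 3 other scalings, 68 kept their sign, the exception being PTGS1 in luteolin plus TGF-β1 over control at -0.02 with total counts, and 13 moved outside their counting interval. For TGF-β1 over control, 3 genes were called, and 5 at 1.5-fold (PTGS1 and PTGFR added); the number was 4 with total counts and 2 at a minimum of 5 CPM, where PTGES drops out. For luteolin plus TGF-β1 over TGF-β1, 4 genes were called, and 2 at 3-fold (PTGER4 and PTGFR). DESeq2 and upper-quartile factors each gave 3, without PTGES2, and no filter on low counts gave 5, with PTGES. The median log2 ratio there was -0.71, and -0.93 with total counts, -0.54 with upper-quartile factors and -0.51 with no filter. For luteolin plus TGF-β1 over control, between 4 and 6 genes were called. The share of all genes called was computed only with TMM scaling, at 2-fold and a minimum of 1 CPM. The counts at other settings have no such share beside them, and are not results about these genes against the background. The miRNA ratios were rerun with total counts only. All 27 then kept their sign and 21 moved outside their counting interval. miR-199a-3p (with against without luteolin), miR-101-3p and miR-128-3p (luteolin plus TGF-β1 over control) were then called lower. Upper-quartile factors of the miRNA libraries were 1.16 (control), 0.983 (TGF-β1) and 0.875 (luteolin plus TGF-β1), unlike the TMM factors. Signs and calls of the miRNAs under these and under DESeq2 factors were not computed, so their stability there is not known. Dividing counts by gene lengths derived from the control library returns the TPM order by construction, so it is no check of that order. Depth limits PTGES, PTGIS and HPGD, each of which had 3 or fewer counts in at least 1 library. The same holds for SLCO2A1, FAAH, NR4A3 and PTGDR2 among the called genes of the wider lists. Calls in those lists were made with TMM only and were not rerun, so calls near 2-fold can depend on the scaling. With luteolin added to TGF-β1, examples are ADCY9 at 1.15 and CEBPD at 1.03, and PDE4A and RAPGEF3 at -1.06.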

Other observations

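Among 16 inducers and transcription factors of PTGS2, 2 of 12 eligible genes were higher and 2 lower with TGF-β1 than control, beside 3.7% and 6.67% of all genes. The higher ones were NFATC2 at a log2 ratio of 2.78 and FOS at 1.24, the latter on counts of 18 and 32. The lower ones were IL1R1, the interleukin-1 receptor gene, at -1.47 and CEBPD, a C/EBP factor gene, at -2.26. With luteolin added, 1 was higher than with TGF-β1 (CEBPD, 1.03) and 5 were lower: EGR1 at -2.71, NFATC2 at -2.41, IL1R1 at -2.23, JUN at -1.47 and NFKB1 at -1.39, beside 12.5% and 14.8% of all genes. IL1R1 went from 943 counts in control to 256 and 50. Luteolin plus TGF-β1 over control gave 1 higher, NFATC1 at 1.17, and 5 lower, IL1R1, EGR1, NFKB1, JUN and CEBPD, beside 12.4% and 17.1% of all genes. Over the inducers the median log2 ratio was 0.13, -0.54 and -0.23 in the 3 comparisons, beside -0.01, -0.04 and -0.08 over all genes. TNF had 0 counts in all 3 libraries, and IL1B 4, 2 and 1.

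RNA-binding regulators of PTGS2 mRNA were all eligible. With TGF-β1, 0 of 10 were higher and 1 lower, ZFP36, the gene of the mRNA-destabilising protein tristetraprolin, at -1.17 (-1.48 to -0.88), beside 3.7% and 6.67% of all genes. With luteolin added, 0 were higher and 3 lower than with TGF-β1: ZFP36L2 at -1.99, HNRNPD at -1.70 and KHSRP at -1.15, beside 12.5% and 14.8% of all genes. ELAVL1, which encodes the stabilising protein HuR, was at 93.7, 111 and 64.3 CPM and was not called. Luteolin plus TGF-β1 over control gave 0 higher and 2 lower, ZFP36L2 and HNRNPD, beside 12.4% and 17.1%. Over all 10 regulators the median log2 ratio was -0.05, -0.19 and -0.46 in the 3 comparisons. Of 8 HSP90 partners of PTGES3, 4 were lower with luteolin added than with TGF-β1 alone (FKBP5 at -3.43, FKBP4 at -1.72, HSP90AA1 at -1.35 and STIP1 at -1.13) and 0 higher, beside 14.8% and 12.5% of all genes. With TGF-β1 over control, 0 of the 8 were called in either direction, beside 10.4% of all genes, and luteolin plus TGF-β1 over control gave 3 lower, without STIP1, and 0 higher, beside 17.1% and 12.4% of all genes. Among these partners the median log2 ratio was 0.28, -1.02 and -0.71.

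Most genes of the lipoxygenase and leukotriene branch were under 1 CPM: ALOX5, the 5-lipoxygenase gene, had 0 counts in all 3 libraries, and 3 of 13 genes were eligible. With TGF-β1 over control, 0 of them were higher and 1 lower, GGT5 at -1.24, beside 3.7% and 6.67% of all genes. With luteolin added, 2 of 3 were higher than with TGF-β1, the leukotriene B4 receptor gene LTB4R at 2.41 on counts of 42 and 205, and GGT5 at 1.18 on counts of 13 and 27, beside 12.5% of all genes. GGT5 passed the 1 CPM minimum only through the higher library in both comparisons. LTB4R was also the 1 gene higher in luteolin plus TGF-β1 over control, with 0 lower, beside 12.4% and 17.1% of all genes. The list's median log2 ratio was -0.54, 1.18 and 0.18 in the 3 comparisons. LTA4H, whose enzyme makes leukotriene B4, was at 26.6, 18.2 and 30.0 CPM and was not called.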
